A study of Mus musculus with 7 samples.

Results

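Cytotoxic and chemokine effector genes were followed in mouse thymocytes on both sides of the split between αβ and γδ T cells. The set held 8 genes of the 32286 features counted: the transcription factor genes Tbx21 and Eomes, the granule genes Gzma, Gzmb and Nkg7, and the chemokine genes Xcl1, Ccl4 and Ccl5. They were chosen by name with earlier results of these data known, so counts of members set beside the share over all genes only describe. Their level, the share of barcodes in which they were detected and their co-detection were read in thymocyte barcodes. These were barcodes with at most 1 UMI (a molecule counted once) of the B cell markers Cd79a, Cd79b and Ms4a1. After the quality filter, 71081 of the 90016 barcodes of the 7 single-cell libraries were thymocyte barcodes. WT C57BL/6 mice of 6 to 8 weeks gave 5 libraries. DN3a cells came before receptor selection, DN3b γδ- and DN4 γδ- cells lay on the αβ side, and DN3b γδ+ and DN4 γδ+ cells lay on the γδ side. Lat-/- mice, which lack the adaptor LAT that relays the T cell receptor signal, gave the other 2 libraries, DN3 γδ- and DN3 γδint, the latter sorted for an intermediate surface level of γδ TCR. These mice also carried the TCRd-H2BEGFP reporter, which labels cells expressing the TCRδ chain and which the WT mice lacked, and their age was not given in the labels. Thymi of several mice were pooled for each genotype. CD4+ and CD8+ cells were depleted from the WT samples, not from the Lat-/- ones. The DN gate held viable NK1.1- cells, and the WT γδ+ cells were CD24+ and CD44 low, so that mature CD24- γδ T cells and NK1.1+ cells were gated out. CD71 set the WT DN3b γδ- cells apart from DN3a cells, and DN4 γδ- cells were CD71+. No CD71 gate was named for the γδ+ cells.

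Each group was 1 library, so no difference below was tested. Levels are given as CPM, in which the summed UMIs of a gene are scaled by all UMIs of the same thymocyte barcodes, and ratios between libraries carry exact 95% intervals that cover counting error only. A ratio of at least 2-fold was called, and a gene was compared where it had at least 20 UMIs over both libraries. Thymocyte barcodes numbered 5274 to 18515 per library, with 37820685 to 338698944 UMIs, and their median depth ranged from 5737.5 UMIs in Lat-/- DN3 γδint to 18506 in WT DN4 γδ-. Shares of barcodes were therefore compared after each barcode had been thinned to 4000 UMIs, which left out 343 to 1769 shallower thymocyte barcodes per library. Every library also held 500 added B lymphocytes. The 118 to 264 B barcodes per library, of median depth 2447.5 to 3711 UMIs, were read as the background from free RNA. This holds only for genes that the B cells do not express themselves, which was not tested. Lat itself stood at 357 to 648 CPM in the WT libraries and at 4.83 CPM and 0.899 CPM in Lat-/- DN3 γδ- and γδint. The ribosomal share of UMIs was 18.2% in Lat-/- DN3 γδint against 27.7% to 33.7% in the others, and any 2 libraries shared 7 to 68 barcodes.

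T-bet (Tbx21) and Eomesodermin (Eomes) are T-box transcription factors that drive cytotoxic and interferon-γ programmes in NK cells, CD8+ T cells and some γδ T cells. Granzymes are serine proteases that are stored in lytic granules with perforin and enter target cells after release, and NKG7 is a membrane protein of those granules. XCL1 attracts cross-presenting dendritic cells through XCR1, whereas CCL4 and CCL5 attract other leukocytes. In thymic γδ T cells, an interferon-γ-producing fate is marked by Il2rb and NK receptor genes and an interleukin-17-producing fate by Sox13, Maf and Blk.

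In mm10 coordinates, Tbx21 (ENSMUSG00000001444) spans chr11:97098071-97115331 on the minus strand and Eomes (ENSMUSG00000032446) chr9:118478212-118486132 on the plus strand. The granzyme genes lie apart, with Gzma (ENSMUSG00000023132) at chr13:113093825-113100981 and Gzmb (ENSMUSG00000015437) at chr14:56258838-56262260, both on the minus strand. Nkg7 (ENSMUSG00000004612) lies at chr7:43437073-43438249 on the plus strand, and Xcl1 (ENSMUSG00000026573) at chr1:164931644-164935527 on the minus strand. The CC chemokine genes share a stretch of chromosome 11, with Ccl5 (ENSMUSG00000035042) at chr11:83525778-83530518 on the minus strand and Ccl4 (ENSMUSG00000018930) at chr11:83662584-83664683 on the plus strand. Between them lies Ccl3, on the minus strand, whose nearer end is 13228 bases from Ccl4 and 117325 bases from Ccl5.

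Promoter sequence was at hand for 6 of the 8 members in RefSeq (GRCm38.p6), and 4 are printed because these genes stood far apart in their patterns below: Eomes was found mostly in DN4 γδ+ barcodes, Gzma was present in every library, Nkg7 was high on the γδ side and low on the αβ side, and Xcl1 was held by few barcodes. Each sequence is the 250 bases before the RefSeq start site, written 5′ to 3′ on the strand of the gene. Capitals mark 3 motifs searched on both strands, namely a T-box site (AGGTGTGA), an E-box (CAGGTG) and a Runx core (TGTGGT). The windows are chr9:118477939-118478188 (plus) for Eomes, chr13:113100982-113101231 (minus) for Gzma, chr7:43436888-43437137 (plus) for Nkg7 and chr1:164935523-164935772 (minus) for Xcl1.
Eomes: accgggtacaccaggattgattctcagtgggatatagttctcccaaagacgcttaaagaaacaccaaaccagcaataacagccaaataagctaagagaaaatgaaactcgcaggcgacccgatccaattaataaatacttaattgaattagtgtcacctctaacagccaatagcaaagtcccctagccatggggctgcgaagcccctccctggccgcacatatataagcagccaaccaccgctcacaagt
Gzma: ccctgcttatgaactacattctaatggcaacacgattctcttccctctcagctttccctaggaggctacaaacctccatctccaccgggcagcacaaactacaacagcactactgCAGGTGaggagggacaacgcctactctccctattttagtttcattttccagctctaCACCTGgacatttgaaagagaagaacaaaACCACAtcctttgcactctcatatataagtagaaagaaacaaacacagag
Nkg7: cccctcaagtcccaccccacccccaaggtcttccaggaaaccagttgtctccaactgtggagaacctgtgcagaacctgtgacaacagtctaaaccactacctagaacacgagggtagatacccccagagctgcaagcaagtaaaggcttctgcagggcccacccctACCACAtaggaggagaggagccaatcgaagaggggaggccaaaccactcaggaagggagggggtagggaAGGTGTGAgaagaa
Xcl1: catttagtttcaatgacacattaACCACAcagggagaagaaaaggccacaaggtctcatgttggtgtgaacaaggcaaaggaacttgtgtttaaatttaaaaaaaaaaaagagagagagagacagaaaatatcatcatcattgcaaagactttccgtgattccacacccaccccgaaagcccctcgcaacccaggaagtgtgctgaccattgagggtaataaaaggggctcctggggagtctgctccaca

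Nkg7 held the T-box site, ending 7 bases before its RefSeq start on the same strand, and a Runx core ending 78 bases before it on the opposite strand. The Nkg7 window ends at 43437137, past the 43437073 where the gene span given above begins. The T-box site thus lies inside that span. Gzma held 2 E-boxes, ending 130 and 74 bases before the start, and a Runx core 45 bases before it, whereas Xcl1 held a Runx core 222 bases before its start. None of the 3 motifs was present in the Eomes window. Of the members not printed, Tbx21 held 1 E-box and Gzmb 2 Runx cores. Of 32851 promoter windows of the same length, 1.12% held the T-box site, 17.2% the E-box and 14.0% the Runx core. These matches describe letters in the windows, not bound sites.

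The T-box factor genes differed from each other in where they were found. Eomes was at 0 UMIs in WT DN3a, Lat-/- DN3 γδ- and Lat-/- DN3 γδint, at 3 and 4 UMIs in DN3b γδ- and DN4 γδ-, at 44 UMIs in DN3b γδ+ and at 663 UMIs in DN4 γδ+. In CPM, this was 0.00886 and 0.0164 on the αβ side, 0.225 CPM in DN3b γδ+ and 9.49 CPM [8.79, 10.2] in DN4 γδ+. DN4 γδ+ thus stood above every other library without overlap of the intervals. At 4000 UMIs, 209 of 6934 DN4 γδ+ barcodes (3.01%; 3.78% without thinning) and 0.0922% of DN3b γδ+ barcodes held an Eomes UMI. The 0 UMIs in all thymocyte barcodes of DN3a, Lat-/- DN3 γδ- and Lat-/- DN3 γδint allow shares of up to 0.044%, 0.0464% and 0.0569% of barcodes with an Eomes UMI. These limits are not limits on cells that express the gene, since positive DN4 γδ+ barcodes held a mean of only 1.60 UMIs. Among all B barcodes, 1 Eomes UMI was counted, in the DN4 γδ+ library.

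Tbx21 was sparse everywhere. DN3a held 2 UMIs (0.0372 CPM), DN3b γδ- and DN4 γδ- 92 and 107 (0.272 and 0.44 CPM), DN3b γδ+ and DN4 γδ+ 33 and 58 (0.169 and 0.831 CPM), and Lat-/- DN3 γδ- and γδint 4 and 14 (0.0795 and 0.37 CPM). The B barcodes held 0 to 2 Tbx21 UMIs per library, and their 0 to 3.29 CPM reached above the thymocyte level in 4 of the libraries. With so few B UMIs, the Tbx21 values there could not be shown to lie above background. Every Tbx21-positive thymocyte barcode held 1 UMI at 4000 UMIs, and the share was 0.303% or less in each library.

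**Figure D1:**
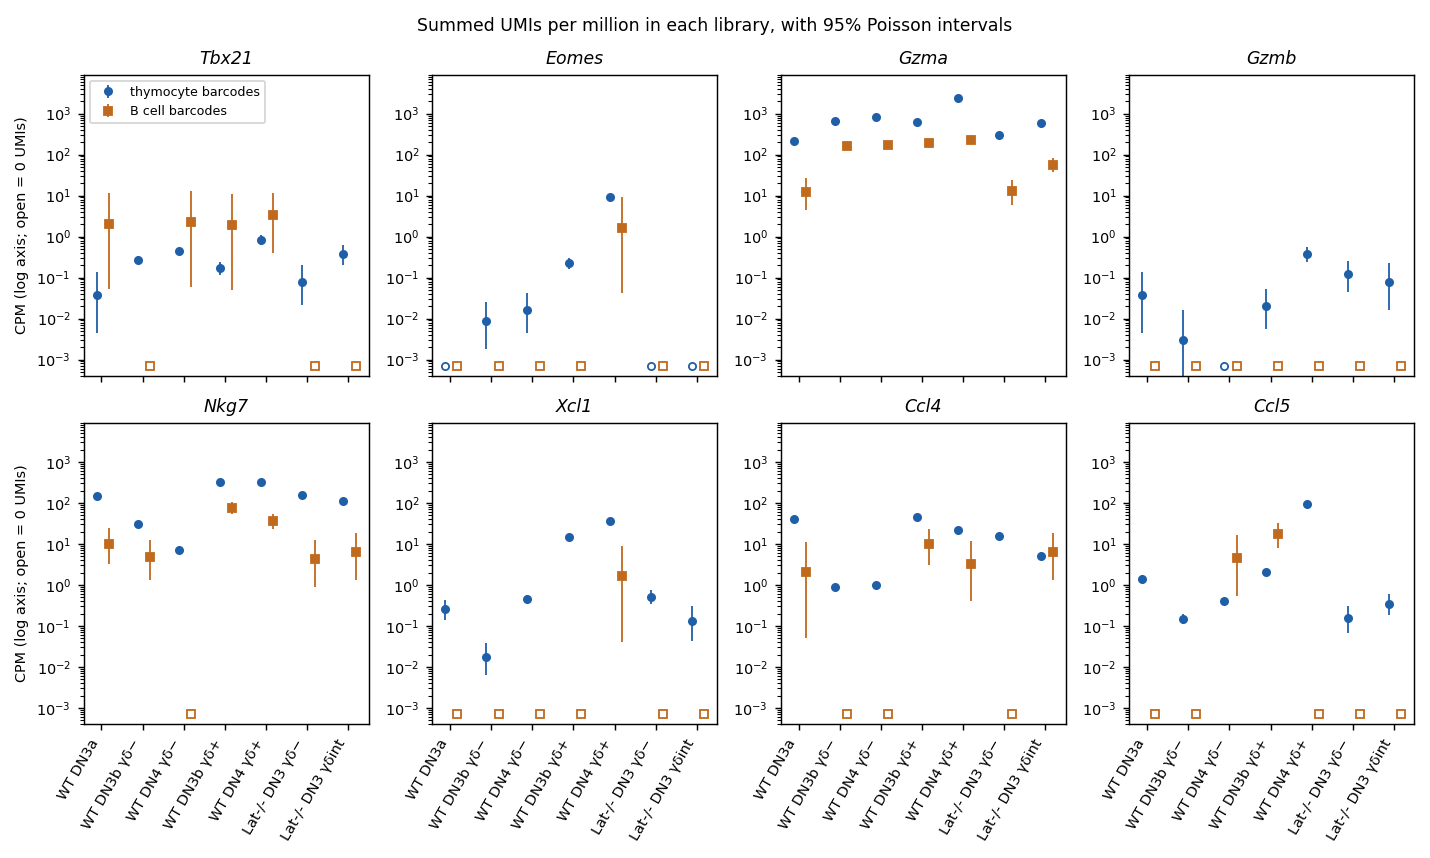
Level of each of the 8 genes in the 7 libraries, as CPM on a log axis with 95% Poisson intervals, in thymocyte barcodes (circles) and B barcodes (squares), with open symbols for 0 UMIs. Eomes and Ccl5 are highest in WT DN4 γδ+ (9.49 and 94.7 CPM), Nkg7 is about level in the WT γδ+ libraries (318 and 322 CPM), and Gzma is above 200 CPM in all 7.

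Gzma, which encodes the tryptase-like granzyme A, was detected broadly in all 7 libraries. DN3a held 221 CPM, the αβ-side libraries DN3b γδ- and DN4 γδ- 676 and 845 CPM, the γδ-side libraries DN3b γδ+ and DN4 γδ+ 639 and 2436 CPM, and Lat-/- DN3 γδ- and γδint 302 and 584 CPM. DN4 γδ+ was highest and DN3a lowest, and the αβ-side libraries lay above DN3b γδ+. B barcodes carried 12.3 to 223 CPM of Gzma, lowest in the libraries where thymocyte Gzma was low, so free Gzma RNA was present and was largest beside DN4 γδ+.

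The share of Gzma-positive barcodes followed another order than the level. At 4000 UMIs it was 81.1% and 85.2% in DN3b γδ- and DN4 γδ-, 52.5% and 70.1% in DN3b γδ+ and DN4 γδ+, 40.7% in DN3a, and 51.8% and 63.9% in Lat-/- DN3 γδ- and γδint, against 53.3% to 94.3% without thinning. The share in B barcodes at that depth was 44.4% (12 of 27) beside DN4 γδ-, 52.8% (19 of 36) beside DN3b γδ-, 38.5% (20 of 52) beside DN3b γδ+ and 50.8% (30 of 59) beside DN4 γδ+, and 2.04% to 3.70% beside DN3a and the Lat-/- libraries. A Gzma share from single UMIs in the 4 former libraries therefore lay on a high background.

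Barcodes with many Gzma UMIs set DN4 γδ+ apart. There 31.9% of barcodes held at least 10 Gzma UMIs at 4000 UMIs and 18.2% at least 20. In DN4 γδ- these shares were 5.44% and 0.872%, in DN3b γδ+ 6.61% and 1.45%, and in the other libraries at most 3.22% and 0.397%. The mean over positive barcodes was 14.1 UMIs in DN4 γδ+, with a highest barcode of 139, and 2.16 to 4.48 UMIs elsewhere. The αβ side thus had more Gzma-positive barcodes with few UMIs each, and DN4 γδ+ fewer positive barcodes with many.

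**Figure D2:**
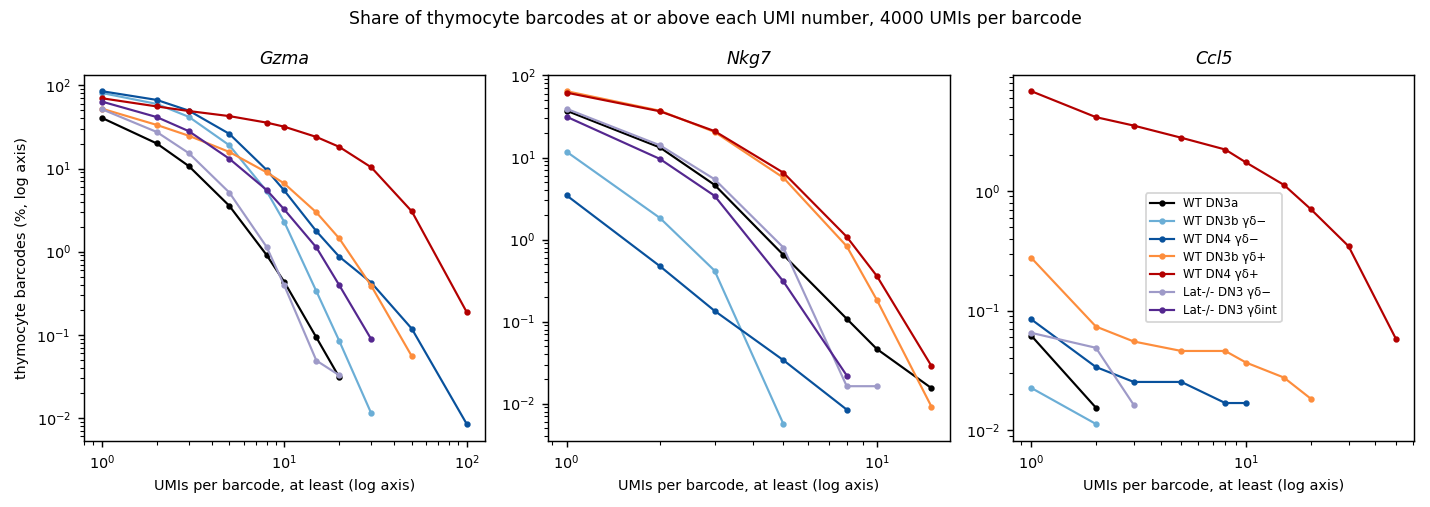
Share of thymocyte barcodes holding at least the number of UMIs on the x axis, for Gzma, Nkg7 and Ccl5 at 4000 UMIs per barcode, with 1 line per library. For Gzma the DN4 γδ- line starts highest (85.2%) and drops below the DN4 γδ+ line, which still holds 18.2% of barcodes at 20 UMIs.

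Gzmb, the aspartate-cleaving granzyme of killer cells, was almost undetected. It gave 2, 1 and 0 UMIs in DN3a, DN3b γδ- and DN4 γδ-, 4 in DN3b γδ+, 26 in DN4 γδ+ (0.372 CPM, in 13 barcodes), and 6 and 3 in the Lat-/- libraries. No B barcode held one.

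Nkg7 was high with surface γδ TCR in the WT libraries and low on the αβ side. DN3a held 147 CPM, and DN3b γδ- and DN4 γδ- held 30.3 and 7.29 CPM. The WT γδ+ libraries reached 318 CPM [316, 321] at DN3b and 322 CPM [318, 326] at DN4, and Lat-/- DN3 γδ- and γδint held 157 and 112 CPM. The intervals of the WT γδ+ libraries overlapped each other and those of no other library. The shares at 4000 UMIs were 64.4% and 61.8% in DN3b γδ+ and DN4 γδ+ (85.3% and 68.8% without thinning) and 11.8% and 3.46% in DN3b γδ- and DN4 γδ- (32.6% and 10.1%). DN3a had 37.2% (53.2%) and the Lat-/- libraries 39.3% and 31.5% (53.9% and 41.3%). B barcodes held Nkg7 in 10 of 52 (19.2%) and 9 of 59 (15.3%) beside the WT γδ+ libraries, and in 0 to 1 barcode beside each of the others.

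Xcl1 was held by few barcodes, a small part of which carried many UMIs. It gave 2848 and 2491 UMIs in DN3b γδ+ and DN4 γδ+, 14 in DN3a, 6 and 113 in DN3b γδ- and DN4 γδ-, and 26 and 5 in Lat-/- DN3 γδ- and γδint. DN3b γδ+ and DN4 γδ+ reached 14.5 and 35.7 CPM, and all other libraries lay at 0.0177 to 0.517 CPM. At 4000 UMIs, 1.91% and 3.78% of their barcodes were positive (4.03% and 4.64% without thinning), and the 1% of barcodes with most Xcl1 held 83.9% and 70.6% of its UMIs. Of the 207 positive DN3b γδ+ barcodes, 79 held at least 2 UMIs and 16 at least 10, and of the 262 in DN4 γδ+, 131 and 19 did. A single barcode held up to 32 UMIs in DN3b γδ+ and 40 in DN4 γδ+. Over all B barcodes 1 Xcl1 UMI was counted, in the DN4 γδ+ library.

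Ccl4, which encodes MIP-1β, was about as high before selection as in DN3b γδ+. DN3a held 41.1 CPM [39.4, 42.8] and DN3b γδ+ 44.5 CPM [43.6, 45.5], while DN4 γδ+ held 21.7 CPM, DN3b γδ- and DN4 γδ- 0.868 and 1.01 CPM, and Lat-/- DN3 γδ- and γδint 15.9 and 5.13 CPM. The αβ-side libraries were lowest by far. At 4000 UMIs, 12.1% of DN3a barcodes and 9.85% of DN3b γδ+ barcodes were positive, but positive barcodes held a mean of 1.57 UMIs in DN3a and 2.63 UMIs in DN3b γδ+, where one barcode reached 47. DN4 γδ+ had 6.45%, the Lat-/- libraries 5.45% and 2.14%, and DN3b γδ- and DN4 γδ- 0.396% and 0.516%. Without thinning, the shares in DN3a, DN3b γδ+ and DN4 γδ+ were 17.5%, 19.99% and 8.64%. In Lat-/- DN3 γδint the 3 Ccl4 UMIs of the B barcodes gave 6.51 CPM, above the thymocyte level.

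Ccl5, which encodes RANTES, was a DN4 γδ+ gene. It gave 6611 UMIs in DN4 γδ+ and 413 in DN3b γδ+, 77 in DN3a, 51 and 96 in DN3b γδ- and DN4 γδ-, and 8 and 13 in Lat-/- DN3 γδ- and γδint. DN4 γδ+ reached 94.7 CPM and the others 0.151 to 2.11 CPM. A single barcode held 66 of the 77 UMIs in DN3a (85.7%) and 10 of the 13 in Lat-/- DN3 γδint (76.9%), and without it these libraries had 0.205 and 0.0793 CPM. In DN3b γδ+ the highest barcode held 80 UMIs (19.4%), and 1.70 CPM remained without it. The DN3b γδ+ library also had 9 Ccl5 UMIs in its B barcodes, all in 1 barcode, which gave 17.5 CPM there and made the background of that library rest on that barcode.

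In DN4 γδ+, 473 barcodes (6.82%; 9.01% without thinning) held Ccl5 at 4000 UMIs. They held a mean of 7.44 UMIs and up to 87, and 1.73% of all barcodes held at least 10. In DN3b γδ+ the share was 0.276%, and in the other libraries 0.0846% or less.

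At the step from DN3a to DN3b γδ+, at which a γδ TCR reaches the surface, 5 of the 7 members compared were at least 2-fold higher and none was lower, against 13.3% of all genes compared higher and 24% lower. The median log2 ratio was 1.53 over the members and -0.23 over all genes compared. The authors tied this step to a wave of proliferation and found most DN3b γδ+ cells in S or G2/M phase. The part of cycling in these ratios was not tested. Xcl1 was 55.8-fold higher (log2 5.80 [5.05, 6.68]), and Eomes was at least 4.02-fold higher against a floor of 3 UMIs for DN3a. Gzma (log2 1.53) and Nkg7 (1.11) were higher by smaller ratios, and Tbx21 was called at 2.18 [0.21, 5.28] from 33 against 2 UMIs. Ccl4 (0.12) and Ccl5 (0.56) were not called. With the B level subtracted, 3 members were higher, since Nkg7 (0.82) and Tbx21 lost their calls, and Ccl5 turned to -6.55. The Ccl5 value also rests on the DN3a barcode with 66 of the 77 UMIs. The 4 erythroid markers were all higher in this comparison too, at a summed 28.9 CPM in DN3b γδ+ against 0.149 CPM in DN3a, and the same 5 members were called higher without the barcodes that held markers of other cell types.

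DN3b γδ+ over DN3b γδ- compared cells of the same stage with and without surface γδ TCR. These libraries also differed in the CD71 gate of the γδ- cells, and its part in the ratios was not tested. Again 5 of 7 members were higher and none lower, against 10.7% higher and 6.88% lower over all genes compared, with medians of 3.81 and -0.03. Xcl1 was 821-fold higher (9.68 [8.56, 11.13]), Ccl4 51.3-fold, Ccl5 14.0-fold and Nkg7 10.5-fold, and Eomes had a log2 ratio of 4.66 [3.02, 6.997] from 44 against 3 UMIs. Ccl5 lay below the B level of DN3b γδ+, which rests on 1 barcode, and its ratio turned to -3.30 with that level subtracted. Gzma was not called (-0.082), and Tbx21 was lower by less than 2-fold (-0.69 [-1.31, -0.10]). Of the markers of other cells compared, 2 of 2 of NK cells and ILCs were higher in DN3b γδ+. Of 4 markers of mature αβ T cells, 1 was higher (Trac, log2 2.88) and 2 were lower (Cd8b1 -3.47 and Cd8a -2.33). Their part in the members' ratios was not tested.

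A comparison of DN3b γδ- over DN3a was added after the data had been seen, to place both sides against DN3a. In it Ccl4 (log2 -5.56), Xcl1 (-3.88), Ccl5 (-3.25) and Nkg7 (-2.28) were lower and Gzma (1.62) and Tbx21 (2.87) higher, so that 4 of 6 members compared were lower and 2 higher, beside 25.5% and 10.4% over all genes. The Ccl5 value rests on the single DN3a barcode named above. Most DN3b γδ- cells were found by the authors in S or G2/M phase, and the part of cycling in these ratios was not tested. All 4 erythroid markers (a summed 24.9 against 0.149 CPM) and 3 of 4 markers of mature αβ T cells (18.7 against 2.79 CPM) were also higher in DN3b γδ-. Without the barcodes that held markers of NK, myeloid, plasmacytoid or erythroid cells, 3 members were called lower, since Xcl1 (-3.80) then had too few UMIs to be compared. At DN3b, Ccl4 was thus lower than in DN3a without surface γδ TCR and level with DN3a with surface γδ TCR. Xcl1 was lower without surface γδ TCR, from only 6 against 14 UMIs (log2 -3.88 [-5.55, -2.41]), and higher with it. Both comparisons share the DN3a library.

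From DN3b γδ+ to DN4 γδ+, 6 of 8 members were higher and 1 was lower, against 20.6% and 8.03% over all genes compared, with medians of 2.12 and 0.24. The authors found most DN3b γδ+ cells in S or G2/M phase and DN4 γδ+ cells mostly resting, and the part of this in the ratios was not tested. Ccl5 (44.9-fold, log2 5.49) and Eomes (42.3-fold, 5.40) had the largest ratios of the 8. Gzma was 3.82-fold higher, Tbx21 had a log2 ratio of 2.30, Gzmb of 4.19 [2.66, 6.17] from 26 against 4 UMIs, and Xcl1 of 1.29 [1.22, 1.37]. Tbx21 lay below the level of the B barcodes in both libraries (0.169 against 1.94 CPM in DN3b γδ+ and 0.831 against 3.29 CPM in DN4 γδ+). Nkg7 was level (0.02 [-0.00, 0.04]), and Ccl4 was 2.06-fold lower (-1.04 [-1.12, -0.96]). The Ccl4 call was at its limit, and its ratio was -0.95 without the barcodes of most UMIs, -0.998 by the mean of barcode CPM and -0.92 with the B level subtracted. Scaling by TMM, which sets the bulk of genes level between libraries, moved every ratio by -0.30 here, to 0.99 for Xcl1 and -0.29 for Nkg7. Xcl1 then lay just under 2-fold. Markers of other cells were also higher in DN4 γδ+, with 3 of 4 markers of mature αβ T cells (a summed 88.6 against 40.8 CPM), 6 of 10 B cell markers (278 against 112 CPM) and all 4 NK and ILC markers compared, and their part in the members' ratios was not tested.

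DN4 γδ+ over DN4 γδ- gave 7 of 8 members higher and none lower, against 26% and 11.8% over all genes compared, with medians of 5.19 and 0.29. These libraries also differed in the CD71 gate. The authors found most DN4 γδ- cells in S or G2/M phase and DN4 γδ+ cells mostly resting. The part of this in the ratios was not tested. The ratios were 240-fold for Ccl5, 76.8-fold for Xcl1, 44.2-fold for Nkg7 and 21.3-fold for Ccl4, and Eomes had a log2 ratio of 9.17 [7.81, 11.05]. Gzmb was at least 30.2-fold higher against the floor of 3 UMIs, and Gzma was higher by 1.53 on the log2 scale. Tbx21 (0.92 [0.43, 1.39]) was not called. Of the markers compared, 6 of 10 of B cells and 4 of 4 of NK cells and ILCs were higher in DN4 γδ+, and 4 of 4 erythroid ones were lower. In the added comparison of DN4 γδ- over DN3b γδ-, Nkg7 was lower (-2.06), Xcl1 (4.71) and Ccl5 (1.39) were higher, and Gzma (0.32), Ccl4 (0.22) and Tbx21 (0.69) were not called, beside 6.95% higher and 3.82% lower over all genes. The Ccl5 ratio turned to -3.61 with the B level subtracted. In DN4 γδ-, NK and ILC markers were in 64.3% of the 14 Xcl1-positive barcodes against 0.585% of the others, and in 40% of the 10 Ccl5-positive ones against 0.627%. Of those 10, 20% held an erythroid marker against 1.26% of the others. The part of such cells in these ratios was not tested.

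**Figure D3:**
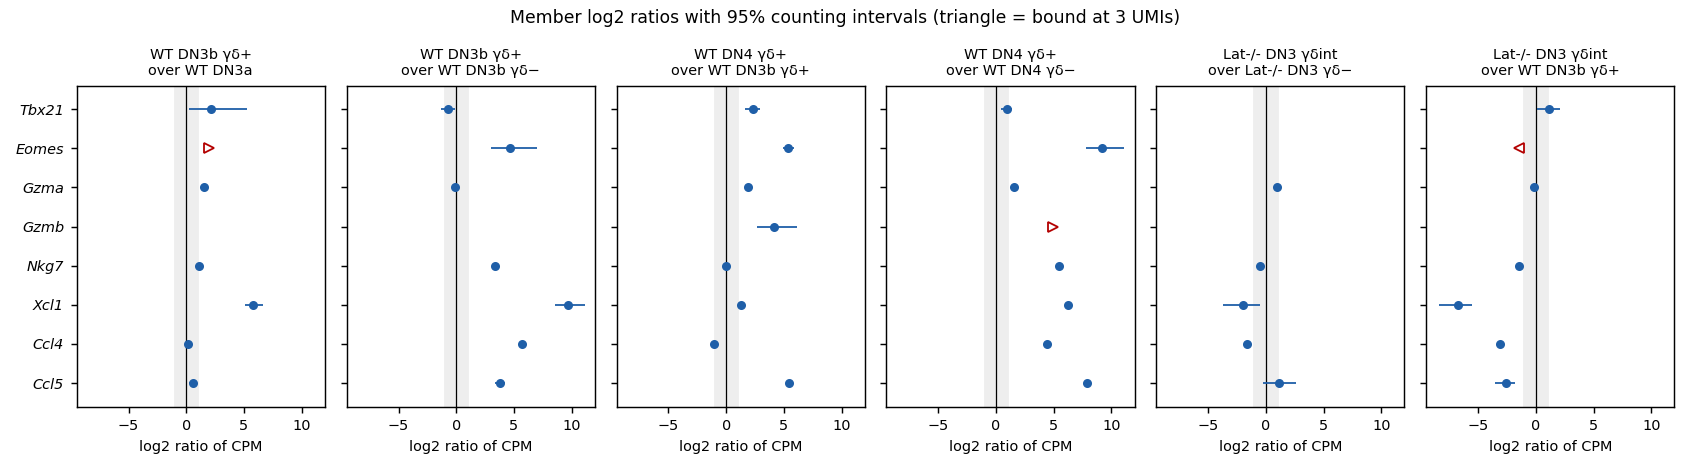
Log2 ratios of CPM for the 8 genes in the 6 comparisons, with exact 95% intervals, a grey band within 2-fold and triangles where a library at 0 UMIs was set to 3. In the WT γδ+ over γδ- comparisons Xcl1, Ccl4, Ccl5, Nkg7 and Eomes all lie above the band, and in Lat-/- DN3 γδint over WT DN3b γδ+ the same 5 lie below it. Ccl5 changes sign in the comparisons of DN3b γδ+ with DN3a, with DN3b γδ- and with Lat-/- DN3 γδint when the B level is subtracted (to -6.55, -3.30 and 4.49).

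Without LAT, most members compared were not higher in the library with surface γδ TCR. In Lat-/- DN3 γδint over Lat-/- DN3 γδ-, 1 of 5 members compared was higher and 2 were lower, against 5.55% and 5.07% over all genes compared, with medians of -0.48 and 0.15. Ccl4 (log2 -1.63 [-1.87, -1.41]) and Xcl1 (-1.97 [-3.70, -0.56], from 5 against 26 UMIs) were lower. Ccl5 was called higher (1.11 [-0.27, 2.59]) from 13 against 8 UMIs, 10 of them in 1 barcode. This call ended under TMM (0.95), and the ratio changed sign with at least 2 Cd3 UMIs and when thinned. Gzma (0.95) and Nkg7 (-0.48) were not called. All 4 erythroid markers (a summed 6.72 against 1.49 CPM) and 3 of 4 markers of mature αβ T cells (4.34 against 0.914 CPM) were higher in γδint, and their part was not tested. Genes with short transcripts were lower in this comparison also in the B cells added to both libraries: over genes of 500 to under 700 nt, where Xcl1, Ccl4 and Ccl5 lie, the median log2 ratio was -1.25 in B barcodes (64 genes) and -0.74 in thymocyte barcodes (281 genes), against 0.31 and 0.14 at 4000 nt or more. The part of this in the chemokine ratios was not tested.

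Against WT DN3b γδ+, 5 of 7 members compared were lower in Lat-/- DN3 γδint and 1 was higher, beside 11.1% lower and 31.8% higher over all genes compared, with medians of -1.51 and 0.57. Xcl1 was 110-fold lower, Ccl4 8.68-fold, Ccl5 6.14-fold (log2 4.49, the other way, with the B level subtracted) and Nkg7 2.84-fold, and Eomes was at least 2.83-fold lower. Tbx21 was called higher (1.13 [0.12, 2.08]) from 14 against 33 UMIs, a call that TMM ended (0.50), and Gzma was not called (-0.13, or -0.77 with TMM). All 4 erythroid markers were lower in γδint (a summed 6.72 against 28.9 CPM). Of 4 markers of mature αβ T cells 3 were higher and 1 was lower (Trac, log2 -6.22), and of 3 myeloid markers compared 1 was higher. Their part in the members' ratios was not tested. The Lat-/- libraries differed from the WT ones in reporter, in bead depletion, in ribosomal share and in sort as well as in Lat. The authors also found a smaller share of Lat-/- DN3 γδint than of WT DN3b γδ+ cells in S or G2/M phase. These differences cannot be told apart here. The longest transcripts of Xcl1, Ccl4, Ccl5 and Nkg7 have 523 to 881 nt, and short transcripts were lower in γδint than in Lat-/- DN3 γδ- (above). The part of transcript length in the ratios against WT DN3b γδ+ was not tested. In the added comparison of Lat-/- DN3 γδ- over WT DN3a, Ccl4 (-1.37) and Ccl5 (-3.17, resting on the DN3a barcode) were lower and Nkg7 (0.09), Gzma (0.45) and Xcl1 (0.99) were not called, beside 3.85% lower and 5.85% higher over all genes. Because these comparisons share libraries, their ratios are not independent of each other.

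Within DN4 γδ+, some members were detected together and others apart. Over 6934 barcodes at 4000 UMIs, 8 of the 28 pairs of members were detected together in more than 2 times the number that the product of their shares gives, and 5 of these rested on 6 barcodes or fewer. Eomes and Ccl5 stood out, with 140 barcodes against 14.3 (9.82 times, phi 0.42). Ccl5 was in 67.0% of Eomes-positive barcodes and in 4.95% of the others, and Eomes was in 29.6% of Ccl5-positive barcodes and in 1.07% of the others. Xcl1 and Ccl5 shared 70 barcodes against 17.9, and Eomes and Xcl1 shared 23 against 7.90.

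Gzma took the opposite course. It was detected in 46.4% of Eomes-positive barcodes against 70.8% of the others, in 50.1% of Ccl5-positive against 71.5%, and in 41.6% of Xcl1-positive against 71.2%. These shares in positive barcodes lie near the 50.8% of the B barcodes of that library. Ccl4-positive barcodes, in contrast, held Gzma in 81.2% against 69.3%, and Ccl4 met Eomes and Ccl5 at 0.594 and 0.656 times the product of the shares. Nkg7 was in 81.8% of Eomes-positive and 80.1% of Ccl5-positive barcodes, against 61.2% and 60.4% of the others. Of the 21 Tbx21-positive barcodes, 19 held Nkg7, 7 Gzma, 6 Ccl5 and 1 Eomes.

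The same split appeared with genes that mark the γδ T cell fates. In DN4 γδ+, Gzma was in 86.5% of barcodes positive for Sox13, which encodes a transcription factor of the interleukin-17 fate, and in 56.2% of the others. The mean Gzma count was 15.5 against 5.12 UMIs, and 49.8% against 16.7% of barcodes held at least 10. The Maf (82.6% against 59.6%) and Blk (86.6% against 62.8%) barcodes showed the same direction, and barcodes with Ccr9, a homing receptor of thymocytes, held Gzma in 78.0% against 39.6%. Barcodes with Il2rb, the IL-15 receptor β chain, held Gzma in 48.8% against 75.1%, those with Klrd1 (CD94) in 41.1% against 70.9%, and those with Zbtb16 (PLZF) in 26.9% against 71.1%.

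Ccl5 and Eomes ran the other way. Ccl5 was in 21.8% of Il2rb-positive barcodes against 3.25% of the others, in 51.3% of Klrd1-positive against 5.52%, in 43.0% of Ifng-positive against 6.18%, and in 2.77% of Sox13-positive against 10.2%. Eomes was in 10.6% of Il2rb-positive against 1.197% and in 0.694% of Sox13-positive against 4.97%. Xcl1 was in 9.96% of Il2rb-positive against 2.30%. Ccl4 ran with Maf (10.9% against 2.72%) and was in 2.99% of Il2rb-positive barcodes against 7.27%. Nkg7 differed less, with 75.4% of Il2rb-positive against 58.5% and 56.2% of Sox13-positive against 66.5%.

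Differences were also seen by γ chain constant gene and by a gene of the cell cycle. Xcl1 was in 2.48% [2.07, 2.95] of DN4 γδ+ barcodes positive for Tcrg-C1 and in 7.43% [6.27, 8.73] of the others, and Ccl5 in 5.65% against 10.1%, whereas Gzma was in 74.1% against 58.6%. Barcodes with Mki67, a gene of cycling cells, held Nkg7 in 47.6% against 64.3% and Ccl4 in 2.87% against 7.08%.

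To set both fates side by side, DN4 γδ+ barcodes were put in 4 classes, a grouping chosen after the data had been seen: 3924 held Sox13, Maf or Blk only, 989 held Il2rb, Klrd1 or Ifng only, 471 held genes of both sets and 1550 held neither. Gzma was in 84.5% of the first class, 40.7% of the second, 67.7% of the barcodes with both and 52.9% of those with neither, with means of 14.4, 1.34, 8.54 and 4.25 UMIs. At least 10 Gzma UMIs were held by 46.4% of the first class and by 3.13% of the second. Ccl5 was in 2.09%, 25.9%, 12.7% and 4.84% of the same classes, Eomes in 0.586%, 12.3%, 5.94% and 2.32%, and Xcl1 in 1.198%, 12.2%, 4.67% and 4.65%. Ccl4 was in 9.45%, 1.92%, 5.94% and 1.87%, and Nkg7 in 54.5%, 78.5%, 69.9% and 67.2%. For each of these 6 genes the barcodes with both sets lay between the other 2 marked classes.

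In DN3b γδ+ the classes were less far apart for most of these genes. They held 3742, 388, 185 and 6536 barcodes in the same order. Gzma was in 60.7%, 42.5%, 56.8% and 48.3%, Ccl4 in 10.4%, 10.1%, 11.4% and 9.50%, and Nkg7 in 64.5%, 74.0%, 67.6% and 63.7%. Xcl1 was in 1.23%, 6.19%, 1.62% and 2.05%, and Ccl5 in 0.214%, 1.80%, 1.62% and 0.184%. Ccl4 was thus level across the classes in DN3b γδ+ and unequal in DN4 γδ+, and whether the classes differed more in one library than in the other was not tested.

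**Figure D4:**
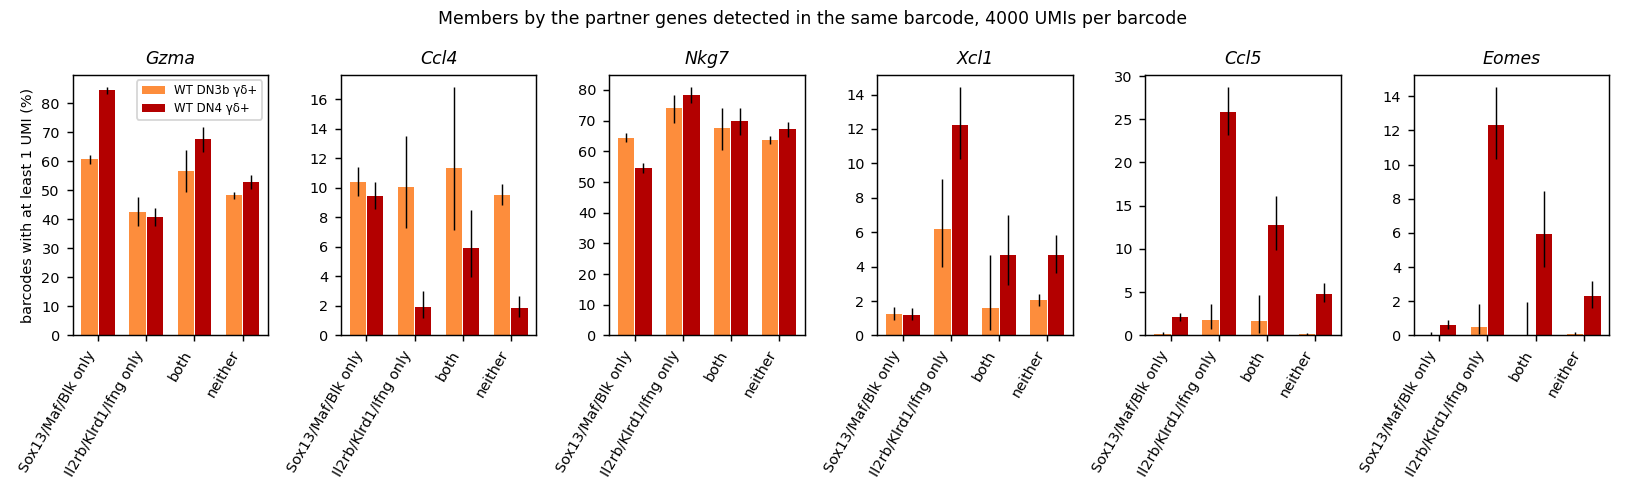
Share of barcodes with at least 1 UMI of Gzma, Ccl4, Nkg7, Xcl1, Ccl5 and Eomes, at 4000 UMIs per barcode with 95% Clopper-Pearson intervals, in 4 classes of WT DN3b γδ+ and DN4 γδ+ barcodes: Sox13, Maf or Blk only, Il2rb, Klrd1 or Ifng only, both, and neither. In DN4 γδ+ Gzma goes from 84.5% in the first class to 40.7% in the second, while Ccl5 goes from 2.09% to 25.9%.

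Before DN4, Ccl4 was found more often in barcodes with Egr2 or Nr4a1. Both are early response genes from the list of 8 genes of TCR signalling, of which the others are not given here. A link to TCR signalling was not tested. In DN3b γδ+, Ccl4 was in 27.7% of Egr2-positive barcodes against 9.30% of the others (mean 1.56 against 0.219 UMIs) and in 15.5% of Nr4a1-positive against 7.79%. Gzma went the other way with Egr2 (40.3% against 52.9%) and with Sox13 as in DN4 (65.8% against 49.1%). In DN3a, 11 of 18 Egr2-positive barcodes (61.1%) held Ccl4 against 11.9% of the others, and 22.9% of Nr4a1-positive barcodes did against 11.6%. In the DN4 γδ- library, the few barcodes with Sox13 (257) or Maf (139) held a mean of 11.5 and 13.9 Gzma UMIs, against 3.34 and 3.39 in the rest. Whether these barcodes were αβ-lineage cells was not tested, and no doublet caller was run.

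The number of members per barcode also differed between libraries. At least 1 of the sparse members Tbx21, Eomes, Gzmb, Xcl1 and Ccl5 was in 10.7% of DN4 γδ+ barcodes, 2.32% of DN3b γδ+ barcodes and 0.088% to 0.398% of the barcodes of the other libraries. Exactly 2 of the 8 members were in 41.2% of DN4 γδ+, 32.5% of DN3b γδ+ and 19.4% of DN3a barcodes. The shares were 22.4% and 21.4% in Lat-/- DN3 γδ- and γδint and 9.31% and 3.43% in DN3b γδ- and DN4 γδ-. In DN4 γδ-, 82.4% of barcodes held 1 member. Gzma and Nkg7 were detected together in 2817 of the 6934 DN4 γδ+ barcodes, and single UMIs of Gzma lay on a high background (above).

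By likeness of detection in DN4 γδ+, the 3 genes nearest to each member, with the members themselves left out, divided in the same manner. Nearest to Gzma were Ccr9 (phi 0.34), Sox13 (0.33) and Dntt (0.30), and nearest to Ccl4 were Maf (0.17), Nebl and Blk. Nearest to Ccl5 were C1ql3, Klrd1 (0.30) and H2-Q6, and nearest to Eomes were Cldn10, C1ql3 (both 0.30) and Prr5l (0.28). Xcl1 was nearest to Tnfrsf9 (0.28), which encodes the costimulatory receptor 4-1BB, and then to Cd160 and Fcer1g, and Nkg7 to Shisa5 (0.23), Ms4a4b (0.21) and Ctsw. Tnfrsf9 was in 45.8% of Xcl1-positive DN4 γδ+ barcodes against 6.21% of the others, and in 42.0% against 5.52% in DN3b γδ+, where it was again the nearest gene. In DN3b γδ+, Ccl4 was nearest to its neighbour Ccl3 (MIP-1α), which was in 16.6% of Ccl4-positive barcodes against 0.736%. Phi values of this size over sparse counts are weak, and depth per barcode had been made equal.

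Other granule and killing genes were read from a list. Of its 20 genes, 13 were compared in DN3b γδ+ over DN3b γδ-, and 9 were higher and none lower, beside 10.7% and 6.88% over all genes compared, with a median log2 ratio of 1.48. Prf1, which encodes perforin, had a log2 ratio of 6.48, Fasl of 5.68, Ifng of 4.58, Cst7 (cystatin F) of 3.20 and Ctsw (cathepsin W) of 2.61. In DN4 γδ+ over DN4 γδ-, 11 of 13 were higher, beside 26% over all genes. In DN4 γδ+ over DN3b γδ+, 3 of 13 were higher (Ctsw 2.18, Prf1 1.44 and Gzmm 1.17) and 1, Tnf, lower, which is near the 20.6% and 8.03% over all genes. From DN3a to DN3b γδ+, 3 of 13 were higher and none lower, beside 13.3% and 24%. Prf1 stood at 3.43 CPM in DN3b γδ+ and 9.34 CPM in DN4 γδ+, and at 0.179 CPM or less in every other library. In Lat-/- DN3 γδint, 3 of 13 were lower than in WT DN3b γδ+ (Prf1 -4.43, Cst7 -3.44 and Fasl -3.10) and 1 was higher, beside 11.1% and 31.8% over all genes, and against Lat-/- DN3 γδ- 1 of 11 was higher, Cst7, beside 5.55%. The other granzymes Gzmd, Gzme, Gzmf and Gzmg were at 0 in all 7 libraries.

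Of 11 other chemokine genes, 2 of 4 compared were higher and 0 lower in DN3b γδ+ over DN3b γδ- (10.7% and 6.88% over all genes), and 4 of 9 higher and 3 lower in DN4 γδ+ over DN4 γδ- (26% and 11.8%). Ccl3 had the largest ratios of the list in both (log2 7.47 and 4.17), and Cxcl9 (-3.84), Ccl6 (-3.24) and Ccl20 (-1.26) were the lower ones at DN4. It stood at 8.38 CPM in DN3b γδ+ and 0.959 CPM in DN4 γδ+. Xcr1, the gene for the XCL1 receptor, was at 0.212 CPM or less. Il2rb stood at 8.26 CPM in DN3b γδ+, 85.4 CPM in DN4 γδ+ and at most 1.01 CPM elsewhere. Of the regulator genes compared, 9 of 17 were higher and 1 lower in DN3b γδ+ over DN3b γδ- (10.7% and 6.88% over all genes), and 10 of 18 higher in DN4 γδ+ over DN3b γδ+ (20.6%). In DN3b γδ+ over DN3a, 6 of 17 regulators were higher and 8 lower (13.3% and 24%), with a median log2 ratio of -0.67. Of 8 genes of TCR signalling, 6 were higher in DN3b γδ+ over DN3a (13.3%), and 7 were lower in Lat-/- DN3 γδint than in WT DN3b γδ+ (11.1%).

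Because NK cells use the same effector genes, their markers were read in the same barcodes. The 7 NK and ILC markers summed to 39.1 CPM in DN4 γδ+ and to 0.788 to 4.47 CPM elsewhere. The B barcodes summed to 30.4 to 143 CPM, above the thymocyte barcodes in each library. In DN3a this was 90.3 against 3.95 CPM, so the B sum gave no background from free thymocyte RNA for these markers. In DN4 γδ+, Ncr1 and Klra4 were at 0, Klrb1c, the gene for the gated-out NK1.1, was at 0.329 CPM (23 UMIs), and Fcer1g (27.2 CPM), Klre1 (7.20) and Tyrobp (4.31) made up most of the sum. A marker of the list was in 28.7% of Eomes-positive barcodes against 4.06% of the others, in 23.7% of Ccl5-positive against 3.42%, in 23.3% of Xcl1-positive against 4.08%, and in 2.80% of Gzma-positive against 9.49%. The part of these markers in the Eomes, Ccl5 and Xcl1 levels was not tested. Of the plasmacytoid markers, which include Ccr9, Siglech had 3 UMIs or fewer in each library.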

How the data were processed

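Single-cell 3′ libraries of sorted thymocytes, 1 per group, were analysed from the deposited matrices of UMI counts. The authors made these counts with Cell Ranger (version 5.0.1 in the submitters' processing notes and 4.0.0 in the file headers) against mm10 modified to hold the TCRd-H2BEGFP version of Trdc, and kept barcodes that it called cells, with no scaling or correction for free RNA. The notes also name R 3.6.3 and Seurat 3.1.5. The members and lists were chosen with earlier results of these data known.

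The quality filter kept barcodes with 200 or more genes and no more than 15% of UMIs from mitochondrial genes. Thymocyte barcodes had at most 1 UMI of Cd79a, Cd79b and Ms4a1, and B barcodes at least 10 such UMIs and at least 2 times their Cd3 UMIs. No doublet caller was run. An alternative left out the 8% of barcodes with most UMIs. UMIs were summed per library and gene, and ratios of CPM carried exact conditional binomial intervals, with a floor of 3 UMIs for a 0. Levels carried Poisson intervals and shares Clopper-Pearson intervals, all at 95% and for counting error only. With 1 library per group no test was possible, and intervals say nothing of the spread between mice or sorts. Each barcode was thinned once to 4000 UMIs (seed 11) for shares and co-detection. The text named the members, genes of the lists, partner genes and, for each member with at least 50 positive barcodes, the 3 genes of highest phi among non-members in at least 2% of barcodes. Promoters came from RefSeq (GRCm38.p6), with 250 bases before the start. Alternatives were TMM scaling, other filters on barcodes, thinned or per-barcode means, subtraction of the B level, other thresholds and a depth of 2000 UMIs. The ratio code was tested on simulated data. The work used R 4.3.3 with edgeR 4.0.16, for TMM factors, and Python 3.11.15 with pandas 2.3.3, scipy 1.17.1, matplotlib 3.10.9, numpy 2.4.6 and pyarrow 21.0.0. Some genes are not reported here.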

Additional observations from a re-analysis of the deposited data

Results flagged for a closer look

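Tbx21 and Gzma had log2 ratios of opposite sign for surface γδ TCR at DN3b and at DN4, though only the Gzma ratio at DN4 reached 2-fold. For Tbx21, γδ+ over γδ- was -0.69 [-1.31, -0.10] at DN3b and 0.92 [0.43, 1.39] at DN4. For Gzma it was -0.082 [-0.092, -0.072] at DN3b, close to level, and 1.53 [1.52, 1.54] at DN4. Each value rests on 1 library per group, and the difference between the stages was not tested. Tbx21 lay below the level of the B barcodes in 3 of these 4 libraries, and in DN3b γδ- the B barcodes held 0 UMIs of it.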

How the results depend on the processing

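No paired analysis was possible because each group was 1 library. Of the log2 ratios recomputed under the alternatives, 368 stayed within their counting interval, 153 moved further and 6 called ones, all of Ccl5, changed sign. Ratios that were not called and changed sign are among the 153. Counts of members called were within 1.5 times the main count in 103 of the settings for the planned comparisons and outside it in 29. With the B level subtracted, 3 in place of 5 members were higher (Nkg7 and Tbx21 were lost) and 1 (Ccl5) in place of 0 lower in DN3b γδ+ over DN3a, 2 (Tbx21 and Ccl5) in place of 0 were lower in DN3b γδ+ over DN3b γδ-, and 2 (Tbx21 and Ccl5) in place of 1 were higher in Lat-/- DN3 γδint over WT DN3b γδ+. Ccl5 changed sign under it to -6.55 in DN3b γδ+ over DN3a, to -3.30 in DN3b γδ+ over DN3b γδ-, to 4.49 in Lat-/- DN3 γδint over WT DN3b γδ+ and to -3.61 in DN4 γδ- over DN3b γδ-. All but the last of these rest on 9 UMIs of 1 B barcode. With a ratio of 4 required, 3 members were higher in DN3b γδ+ over DN3a, 3 lower in Lat-/- DN3 γδint over WT DN3b γδ+, and 0 higher and 0 lower in Lat-/- DN3 γδint over γδ-. With at least 100 UMIs required, 3 were higher in DN3b γδ+ over DN3a. Without any B marker UMI, 1 (Tbx21) was lower in DN3b γδ+ over DN3b γδ-. Ccl4 was no longer lower in DN4 γδ+ over DN3b γδ+ (0 members) without the barcodes of most UMIs, by the mean of barcode CPM, with the B level subtracted and at a ratio of 4. The one member higher in Lat-/- DN3 γδint over γδ-, Ccl5, was lost (0) under TMM, without B marker UMIs, with at least 2 Cd3 UMIs, thinned, at a ratio of 4 and at 100 UMIs, changed sign to -2.59 with at least 2 Cd3 UMIs and to -0.98 thinned, and 3 (Tbx21, Gzma and Ccl5) were higher with no quality filter. Of the 2 lower there, 1 remained without B marker UMIs, thinned and at 100 UMIs. Tbx21 as the one higher in Lat-/- DN3 γδint over WT DN3b γδ+ was lost (0) under TMM, without the barcodes of most UMIs, thinned, by the mean of barcode CPM, at a ratio of 4 and at 100 UMIs. Ccl5 in Lat-/- DN3 γδ- over DN3a turned to 0.76 when thinned. At 2000 UMIs, 5 of the 8 pairs were over 2 times the product of their shares, and Eomes with Ccl5 ranged from 7.49 to 16.2 times. TMM moved all ratios of a comparison by -0.64 to 0.30 over the 6 planned ones, most in Lat-/- DN3 γδint over WT DN3b γδ+. Few UMIs limited Tbx21 and Gzmb in every library, Eomes outside DN4 γδ+ and Ccl5 in the Lat-/- libraries. Free RNA limited shares of Gzma, and the causes of these changes were not tested.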
